A study of Caenorhabditis elegans with 2 samples.

Results

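Cuticle collagen genes are described here as the 156 protein-coding genes of *Caenorhabditis elegans* whose name is col- followed by a number, out of 19973 protein-coding genes on the nuclear chromosomes. They were chosen by name alone in the WBcel235 annotation. A peak was counted for a gene when its summit lay in the gene body or within 1000 bp of the gene start. The peaks come from ChIP-seq, the sequencing of DNA that co-precipitates with a protein, here through an antibody to GFP, in 2 biological replicates of whole L1 larvae aged 6 hours that had been starved after bleaching. All larvae were of strain OP760, which carries the unc-119(tm4063) mutation and the transgene wgIs760, made of ceh-8::TY1::EGFP::3xFLAG together with the rescue marker unc-119(+). The animals were pooled males and females of this stable transgenic line, in which CEH-8 carries the tag at its C-terminus. Both replicates form 1 group, so no conditions were compared and no test between groups was possible. Whole larvae were used, so the cells in which a site was occupied cannot be told apart.

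The gene ceh-8 encodes a homeodomain transcription factor of the paired-like class and is expressed in the RIA interneurons of the head. Cuticle collagens are secreted by the epidermis and cross-linked into the exoskeleton that the worm rebuilds at each molt, and many are transcribed in waves during the molting cycle. Their chains contain stretches of Gly-X-Y repeats, in which every triplet starts with glycine and proline is common in the other positions. Glycine codons begin with GG and proline codons with CC, which gives these genes GC-rich coding sequences. The transmembrane collagen COL-99 is an exception within the family by name, since it is not a cuticle component.

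The authors deposited 4 lists: 30000 peaks from either replicate, as many from both replicates together, and 1891 peaks in an optimal IDR list, where IDR, the irreproducible discovery rate, measures how alike peaks rank between replicates. The signal of each peak is the authors' value and ranks peaks only within its own list. The IDR list held the 1891 strongest pooled peaks, so a peak that was strong in a single replicate could enter it. For comparison with it, the 1891 strongest peaks of each replicate were taken. A peak is called found in both replicates when its summit lay within 200 bp of one of these in each replicate. Read depth is unknown from these files. The replicates differed in base composition: within 50 bp of the summit the median GC content was 48.5% over the 1891 strongest peaks of replicate 1 and 43.6% over those of replicate 2.

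The sequences below reach 50 bases to either side of the summits of the 4 strongest coding-exon IDR peaks, col-50 left out, to let the Gly-X-Y coding pattern be seen under the peaks. They are read from WBcel235 on the strand of the gene, and capitals mark glycine codons in the annotated reading frame. The window of col-102 is chrIV:605582-605682, that of col-105 is chrIV:1358256-1358356, that of col-2 is chrIV:10084716-10084816 and that of col-176 is chrX:10078238-10078338.
col-102: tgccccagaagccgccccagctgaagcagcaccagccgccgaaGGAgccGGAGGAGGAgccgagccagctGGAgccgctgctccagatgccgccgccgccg
col-105: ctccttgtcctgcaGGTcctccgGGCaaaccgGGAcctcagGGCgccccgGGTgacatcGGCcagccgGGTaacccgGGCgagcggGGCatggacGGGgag
col-2: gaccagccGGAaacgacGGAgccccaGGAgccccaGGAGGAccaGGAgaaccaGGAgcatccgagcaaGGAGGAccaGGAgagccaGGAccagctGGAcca
col-176: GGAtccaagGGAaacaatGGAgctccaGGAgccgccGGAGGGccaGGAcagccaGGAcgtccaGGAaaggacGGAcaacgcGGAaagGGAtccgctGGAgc
In col-105 10 glycine codons lay in the window, in col-2 12 and in col-176 13, mostly with a spacing of 3 codons. In col-102 there were 5, and the summit lay outside the Gly-X-Y runs. Its GC content was 74.3%, against 73.3% for col-105, 66.3% for col-2 and 64.4% for col-176.

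The sequences of the 2 strongest promoter IDR peaks of collagen genes are shown for contrast, with TAAT on either strand, the core bound by many homeodomains, in capitals. The window of col-71 is chrII:3502798-3502898 and that of col-38 is chrII:8569448-8569548, both on the minus strand.
col-71: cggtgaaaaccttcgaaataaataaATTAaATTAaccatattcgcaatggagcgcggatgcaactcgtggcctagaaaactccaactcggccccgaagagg
col-38: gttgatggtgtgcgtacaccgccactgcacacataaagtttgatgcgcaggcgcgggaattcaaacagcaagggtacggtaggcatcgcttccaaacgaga
The col-71 window had a GC content of 45.5% and a pair of TAAT cores. The col-38 window had a GC content of 53.5% and no TAAT core.

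Collagen genes carried IDR peaks mainly inside their own coding exons and seldom in their promoters. Of the 156 genes, 32 had an IDR peak in the gene body or within 1000 bp of the start (20.5%, exact 95% binomial interval 14.5% to 27.7%), against 8.31% of all protein-coding genes. In 27 of them the summit lay in a coding exon (17.3%, exact interval 11.7% to 24.2%), against 0.711% of all genes. In 4 it lay in the promoter, taken as the 1000 bp upstream of the start (2.56%, exact interval 0.703% to 6.43%), against 5.54% of all genes. Introns held a peak in 2 genes, col-63 and col-99 (1.28%, against 1.88% of all genes). A UTR exon held one in 1, col-153 (0.641%, against 0.355% of all genes). Of all 142 genes with a coding-exon IDR peak 19% were collagens, although collagens make up 0.613% of annotated coding sequence. Per 100 kb of coding sequence there were 18.5 IDR summits in collagen genes and 0.587 over all genes. At cytoplasmic ribosomal protein genes 36 of 76 had a promoter IDR peak (47.4%, against 5.54% of all genes). A coding-exon peak was at 0 of 76, near the 0.711% of all genes, among which promoter peaks were also the more common. These differences between gene groups were not tested, and the intervals cover counting error only.

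**Figure D1:**
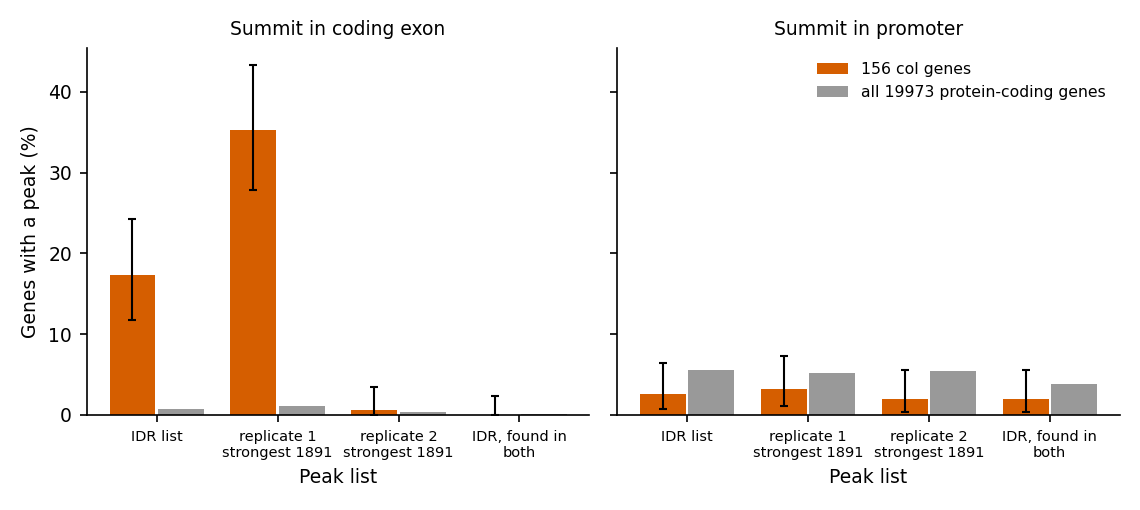
Share of genes with a peak summit in a coding exon (left) or promoter (right), in %, for the 156 collagen genes (orange, with exact 95% binomial intervals) and all 19973 protein-coding genes (grey), in 4 peak sets. The coding-exon share of collagen genes was 17.3% in the IDR list and 35.3% among the strongest peaks of replicate 1, but 0.641% among those of replicate 2 and 0% among peaks found in both.

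The coding-exon peaks were strong in replicate 1 alone. Among its 1891 strongest peaks, 55 collagen genes had a coding-exon summit (35.3%, exact interval 27.8% to 43.3%), against 1.11% of all genes. Among the 1891 strongest of replicate 2, 1 collagen gene had one (0.641%, exact interval 0.0162% to 3.52%), against 0.421% of all genes. That gene was col-63, beside the ceh-8 locus, and its summit had a GC content of 40.6%. This peak, of rank 704, lay within 200 bp of a col-63 summit that the IDR list placed in an intron. All 28 coding-exon IDR summits of the 27 genes matched one of the strongest peaks of replicate 1, and 0 matched one of replicate 2. Higher in the lists, 4 collagen genes had a coding-exon summit among the strongest 100 peaks of replicate 1, out of 9 genes of any kind. Among its strongest 500 peaks there were 24, out of 66. Replicate 2 had 0 collagen genes in either, out of 1 and 6 genes of any kind. With so few genes of any kind there, the 0 says little about collagens. Coding-exon IDR summits of other genes were also unevenly shared, with 79 of 117 among the strongest of replicate 1 only, 21 among those of replicate 2 only and 11 found in both. Of the 841 promoter IDR summits of all genes, 565 (67.2%) were found in both replicates.

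In the full lists the replicates were closer but still differed at these genes. A coding-exon summit at any rank was present at 111 collagen genes in replicate 1 (71.2%, against 33.7% of all genes) and at 46 in replicate 2 (29.5%, against 32.8% of all genes). Both lists had one at 41 collagen genes (26.3%, against 17.9% of all genes), and neither list at 40 (25.6%, against 51.5%). A further 70 had one solely in replicate 1 (44.9%, against 15.7%) and 5 solely in replicate 2 (3.21%, against 14.8%). The median rank of collagen coding-exon summits was 4275 in replicate 1, against 16102 for other genes, and 12739 in replicate 2, against 16393. In replicate 2 the collagens' share of genes was therefore near the background, and in replicate 1 it was above it. No summit in any of the 4 lists fell to 23 of the 156 genes, some of which have near-identical copies, described below. The like share over all genes was not counted, so the 23 cannot be set against a background.

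The strongest coding-exon peak was at col-102 (WBGene00000676, chrIV:605457-605806, plus strand). It had a signal of 257 and rank 48 in replicate 1, no summit within 200 bp in replicate 2, and a signal of 263 and rank 173 in the IDR list. At col-105 (WBGene00000679, chrIV:1358184-1358391) the signal was 244 in replicate 1 (rank 58) and 21.2 in replicate 2 (rank 22553), with 263 in the IDR list (rank 174). Both were among the strongest 100 peaks of replicate 1, and within 200 bp in replicate 2 were absent or far down the list. Elsewhere in its coding exons col-105 had a replicate 2 peak of rank 6132 (signal 31.7).

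At col-50 (WBGene00000627) a peak in the last part of the coding sequence ranked 60 in replicate 1 with a signal of 239, had no counterpart in replicate 2 and ranked 270 in the IDR list. A second coding-exon summit of col-50 ranked 694 in replicate 1 and 1704 in the IDR list, also without a replicate 2 counterpart within 200 bp. Farther from both summits, replicate 2 had a col-50 coding-exon peak of rank 21618 (signal 21.6). The nearby gene col-51 ranked 210 in replicate 1 (signal 144), had none in replicate 2 and ranked 830 in the IDR list. The gene col-2, known for expression in dauer larvae, the arrested alternative to the third larval stage, had a signal of 194 in replicate 1 (rank 95), none in replicate 2 and IDR rank 337. These 3 genes were therefore high in a single replicate.

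At col-176 the signal was 151 in replicate 1 (rank 189) and 32.1 in replicate 2 (rank 5862), with IDR rank 403. At col-98 it was 152 in replicate 1 (rank 178) and 33.1 in replicate 2 (rank 5248), with IDR rank 411. The replicate 2 counterparts at these 2 genes ranked highest among those of the 28 coding-exon summits. At col-108 the ranks were 272 and 12984 in replicates 1 and 2, with IDR rank 535, and at col-33 and col-34, on the same chromosome, the replicate 1 ranks were 152 and 230. Replicate 2 had no counterpart at col-33 and one of rank 10273 at col-34. The IDR ranks were 494 for col-33 and 565 for col-34. At col-107 (replicate 1 rank 114, IDR rank 521) and col-40 (replicate 1 rank 123, IDR rank 541) replicate 2 had no summit within 200 bp.

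Over all 28 coding-exon IDR summits the replicate 1 signal had a median of 122 and ranged from 64.6 to 257, with ranks from 48 to 1175. A replicate 2 summit lay within 200 bp of 10 of them, at ranks from 5248 to 25145 and signals from 20.3 to 33.1. Their median signal of 25.4 and median rank of 13472 put them near the middle of the 30000 peaks of replicate 2, whose lowest signal was 18.8, median 24.6 and highest 543. Replicate 1 had a lowest signal of 17.4, a median of 23.7 and a highest of 841, and the 28 signals there were all far above its median. For coding-exon IDR summits of other genes a replicate 2 summit was within 200 bp in 65.8%, against 35.7% here and 97.3% for promoter summits of all genes.

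**Figure D2:**
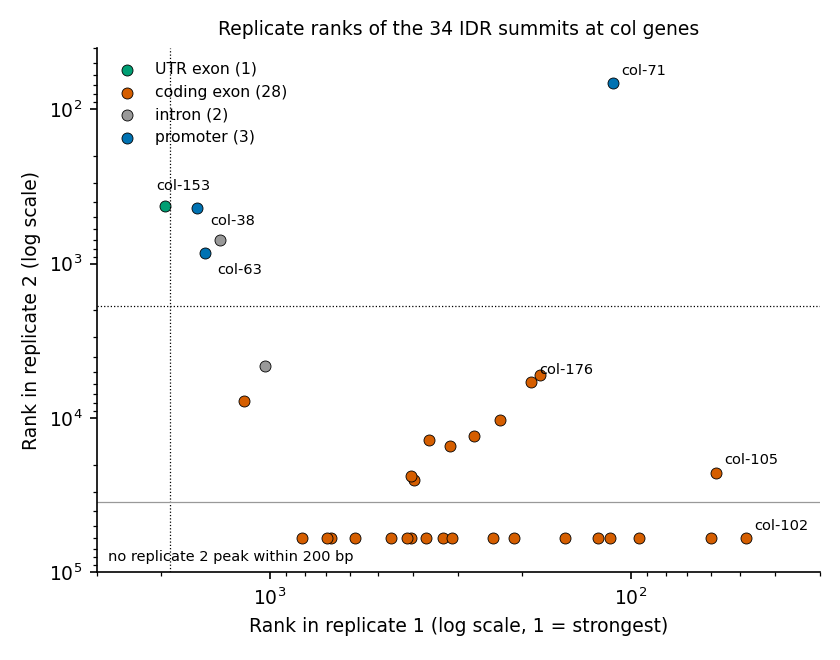
Rank in replicate 1 (x axis) against rank in replicate 2 (y axis), both on log scales with the strongest at the right and top, for the 34 distinct IDR summits at collagen genes, coloured by class. Dotted lines mark rank 1891, and points below the grey line had no replicate 2 summit within 200 bp. The 28 coding-exon summits all lie at rank 5248 or weaker in replicate 2 or have no counterpart there, while the 3 promoter summits lie within rank 1891 in both.

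Promoter peaks were few, and those found in both replicates lay in another gene's promoter too or inside ceh-8. The strongest was at col-71 (WBGene00000647, chrII:3502760-3502902, at -278 bp from the start, that is upstream). Its signal was 184 in replicate 1 (rank 112) and 185 in replicate 2 (rank 68), and it ranked 71 in the IDR list. It was the strongest peak of any class at a collagen gene in the IDR list and in replicate 2. The summit also lay in the promoter of Y49F6B.2, 120 bp from that gene's start, and thus nearer to it than to col-71.

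At col-38 (chrII:8569323-8569672, at -410 bp) the signal was 55 in replicate 1 (rank 1584) and 89 in replicate 2 (rank 439), with IDR rank 756. The same summit lay 429 bp upstream of rpl-5, a gene for a ribosomal protein. At col-63 the promoter summit, at -626 bp, had signals of 56.4 and 66 (ranks 1510 and 852 in replicates 1 and 2) and IDR rank 1114. It lay inside ceh-8, the gene on the transgene, 84 bp from the nearer end of that gene. The intron summit of col-63 ranked 1374 in replicate 1, 704 in replicate 2 and 1157 in the IDR list, and lay 630 bp outside ceh-8. Its replicate 2 counterpart is the col-63 coding-exon peak described above. The fourth promoter peak, at col-142, was the coding-exon peak of its neighbour col-141, at -895 bp from the col-142 start, with rank 462 in replicate 1, no counterpart in replicate 2 and IDR rank 1043. Each of the 4 thus also lay in the promoter of another gene, inside ceh-8 or in a coding exon of another collagen.

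Altogether 3 collagen genes had an IDR peak found in both replicates, col-71, col-38 and col-63 (1.92%, exact interval 0.398% to 5.52%), against 5.17% of all genes. None was in a coding exon (0 of 156, which by the exact interval allows up to 2.34%). Among the 1891 strongest peaks, 5 collagen genes had a promoter summit in replicate 1 (3.21%, against 5.16% of all genes) and 3 in replicate 2 (1.92%, against 5.39% of all genes). In the full lists 47 had one in replicate 1 (30.1%, against 31.1% of all genes) and 41 in replicate 2 (26.3%, against 31.2% of all genes). These shares are near the background or below it. The UTR-exon summit at col-153 ranked 1953 in replicate 1 and 426 in replicate 2 with IDR rank 789, and lay 81 bp upstream of the start of F17C11.4. The intron summit at col-99 ranked 1030 in replicate 1 and 4622 in replicate 2.

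**Figure D3:**
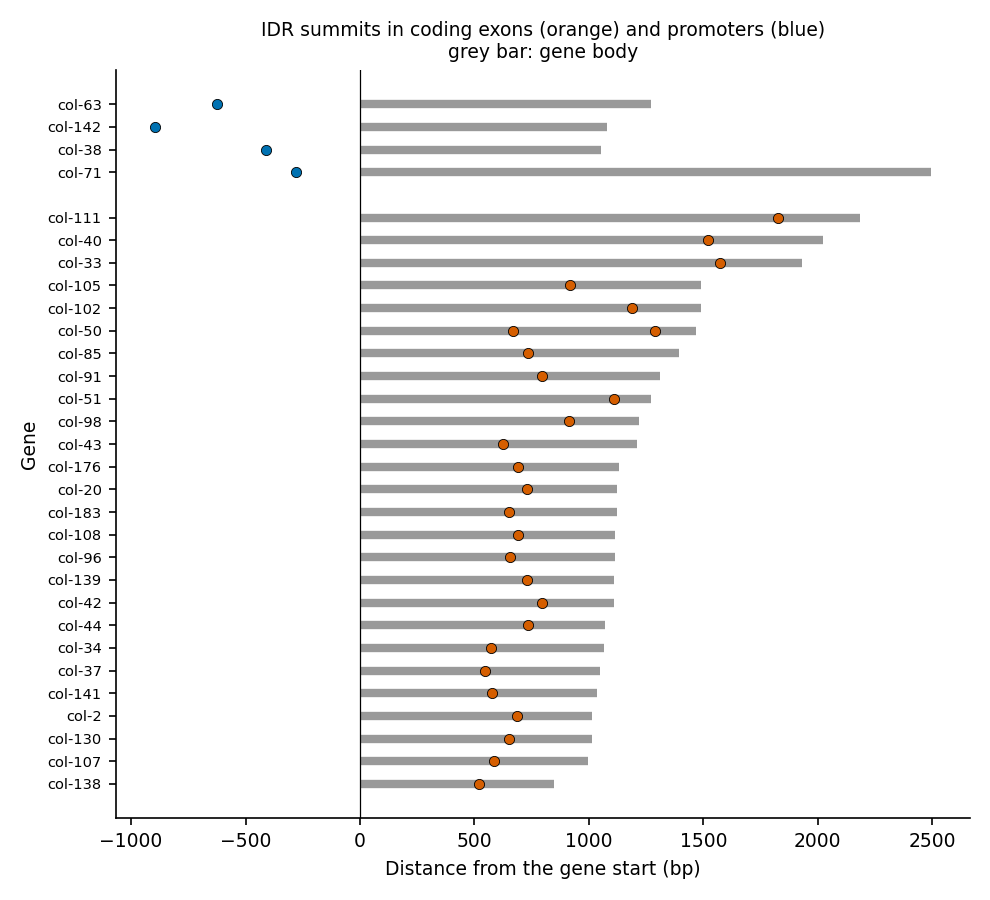
Position of IDR summits (points) relative to the gene start, in bp, for genes with a coding-exon peak (orange) and 4 with a promoter peak (blue), with gene bodies as grey bars. The gene col-99, of 9946 bp, is left out for scale. Coding-exon summits lie between 45.6% and 87.8% of the way along the gene.

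Within the genes the coding-exon summits lay in the middle to late part of the body, at a median of 63% of the gene's length and 728 bp from the start. By the annotated reading frame, 24 of the 28 fell in a Gly-X-Y run, taken as at least 3 consecutive triplets that start with glycine. The 4 that did not were at col-102, col-44, col-51 and the stronger summit of col-50. Gly-X-Y runs covered a median of 51.9% of the protein in the 27 genes and 51.2% over all 156, so these medians were close. The annotated coding sequence of col-17 holds no such run, and whether its reading frame is annotated correctly was not tested. Of the 28 summits, 6 also lay in the promoter of another gene, among them that of col-102 (inx-18, an innexin gene, 723 bp from its start) and that of col-2 (W01B6.8, 393 bp). By chromosome, coding-exon IDR peaks were at 11 of 41 collagen genes on IV, 3 of 12 on III, 5 of 31 on V, 3 of 24 on II, 3 of 27 on X and 2 of 21 on I. The like shares over all genes were not counted by chromosome, so these small counts do not set a chromosome apart.

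The summits coincided with GC-rich sequence. Within 50 bp of the 28 coding-exon IDR summits the median GC content was 66.3%, with a range from 59.4% to 74.3%. It was 61.4% for the 117 coding-exon IDR summits of other genes, 46.5% for promoter IDR summits of all genes and 49.5% for the 4 promoter summits of collagens. The most GC-rich window of this size in the same gene was centred a median of 29 bp from the summit, and within 100 bp of it in 23 of 28. The summit's GC content was at or above that of a median of 93.7% of positions in the gene. GC content averaged over 20-bp steps was 67.9% at the summit and 42.2% at 600 bp to one side.

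**Figure D4:**
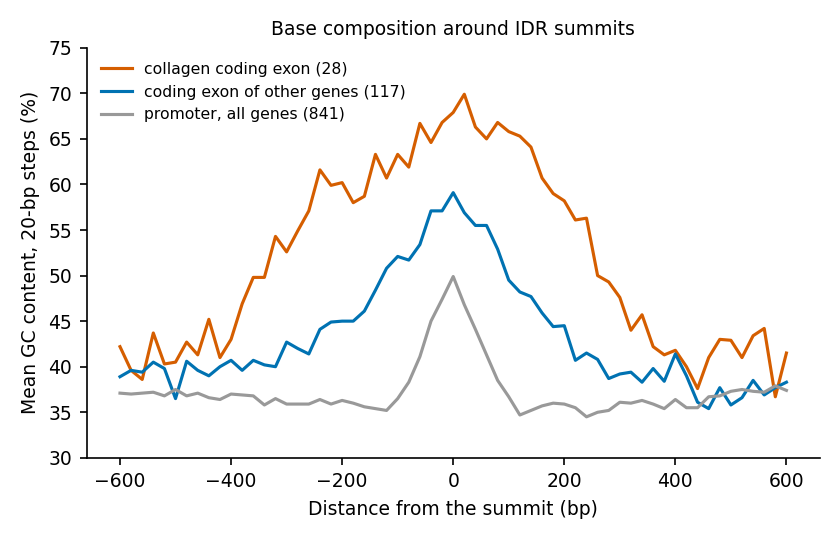
Mean GC content in 20-bp steps (%) against distance from the summit (bp) for IDR summits in coding exons of collagens (28), in coding exons of other genes (117) and in promoters of all genes (841), all on the forward strand of the assembly. At the summit the means are 67.9%, 59.1% and 49.9%.

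Median base composition differed between collagen genes with and without strong peaks, while median coding length was similar. Coding sequence had a median GC content of 58.8% (53.2% to 62.6%) in the 27 genes with a coding-exon IDR peak and 58% in the 28 that had a strong coding-exon peak in replicate 1 but none in the IDR list. It was 52.5% in the 56 genes with weaker replicate 1 peaks and 52.8% in the 45 with none. The median coding length was 912, 904, 912 and 915 bp in the same order. The group with none includes genes with near-identical copies, described below, of which only 11 of 29 had a replicate 1 coding-exon peak. A missing peak at such genes cannot be read as absence of binding. Over all members the median GC content was 55.2%, against 42.5% over all protein-coding genes, and 146 of the 156 were in the fifth of genes with the highest GC content. Across the 111 genes with a coding-exon peak in replicate 1, Spearman's rho between the strongest peak's signal and the highest GC content of any such window in the gene was 0.648. Across the 46 genes with one in replicate 2 it was -0.293. Both describe genes of 1 family measured in 1 library each.

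**Figure D5:**
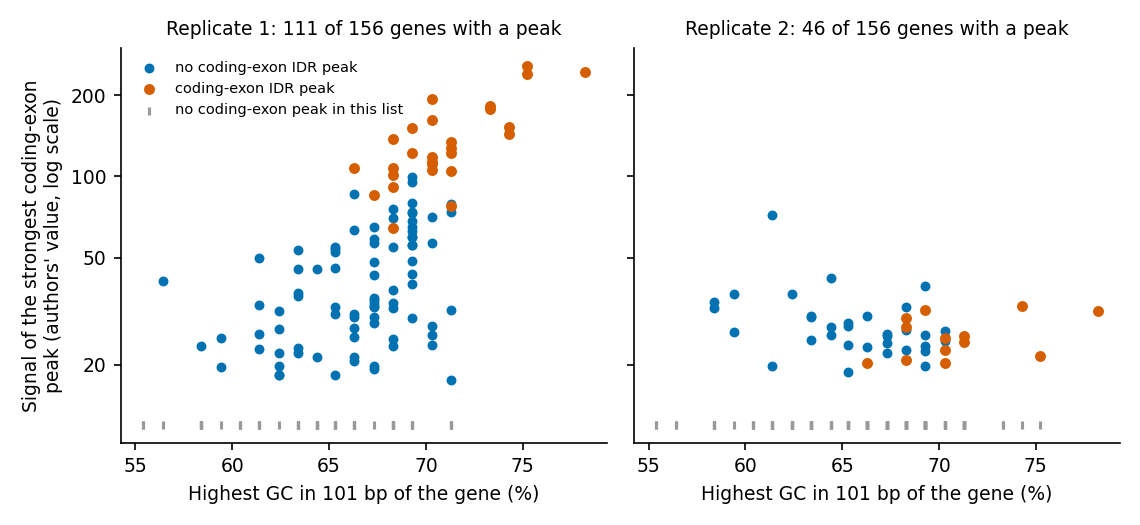
Signal of the strongest coding-exon peak of each collagen gene (authors' value, log scale) against the highest GC content of any window of that gene (50 bp to either side, %), in replicate 1 (left, 111 genes with a peak) and replicate 2 (right, 46 genes). Orange marks the 27 genes with a coding-exon IDR peak, and grey ticks mark genes with no such peak in the list. Signals rise with GC content on the left (Spearman's rho 0.648) and not on the right (-0.293), and the scales of the lists are the authors' own.

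Other genes of like base composition were looked at in the same way. With coding GC content from 55% to below 60%, 41 of 65 collagen genes (63.1%) had a coding-exon summit among the strongest peaks of replicate 1, as did 40 of 192 other genes (20.8%). In replicate 2 these were 0 of 65 and 2 of 192 (1.04%). From 50% to below 55%, 5 of 51 collagens (9.8%) and 55 of 1439 other genes (3.82%) had one in replicate 1. Between 45% and 50% there were 0 of 21 collagens and 34 of 4346 other genes (0.782%). At 60% and over there were 9 of 16 collagens (56.2%) and 13 of 32 others (40.6%). The share thus rose with GC content up to 60% in both sets of genes in replicate 1, and was at most 1.96% in these ranges in replicate 2. The part that base composition had in the peaks was not tested.

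Words of the Gly-X-Y coding sequence were common in the coding-exon windows, of which 24 of 28 had their summit in a Gly-X-Y run. Collagen coding sequence without a peak was not counted, so these shares describe the genes and do not set the peaks apart. On either strand, GGACCA, a glycine codon followed by a proline codon, lay within 50 bp of 21 of the 28 summits (75%), and CCAGGA, the reverse order, of 23 (82.1%). The words overlap where codons alternate, as in the col-2 sequence above. In coding-exon IDR windows of other genes the shares were 10.3% and 12%, and over all IDR windows of the same length 3.28% and 4.07%. The homeodomain core TAAT, on either strand, was in 0 of the 28 windows, against 20.5% of coding-exon windows of other genes and 47.8% of all IDR windows. TAATTA was in 0 of 28, against 6.93% of all IDR windows. GAGAGA was in 1 of 28, against 21.6%. Of the 4 promoter windows of collagens 2 held TAAT and 0 TAATTA. A word in a window is not evidence of a bound site, and the windows also differ in GC content.

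Several collagens have near-identical copies, between which reads may not be told apart. At 29 of the 156 genes at least 50% of the 30-base words of the coding sequence occurred elsewhere in the genome, for example 93.4% at col-12 and 92.7% at col-13. None of these 29 had a coding-exon IDR peak, against 27 of the other 127 (21.3%). In the full list of replicate 1, 11 of the 29 (37.9%) and 100 of the 127 (78.7%) had a coding-exon summit, and in that of replicate 2, 1 of 29 (3.45%) and 45 of 127 (35.4%). The sources used here do not say how reads with several matches were treated, so the absence of a peak at such genes cannot be read as absence of binding. Among the 28 coding-exon IDR peaks a median of 2.02% of words occurred elsewhere, and 8 had none. The highest shares were 30.8% at col-44 and 27.1% at col-102, whose values are uncertain to that extent.

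Other genes of the cuticle pathway were described from lists set by name. Of 20 cuticle collagens named for their mutant body shape or cuticle (bli, dpy, lon, rol and sqt genes), 1 had a coding-exon IDR peak (against 0.711% of all genes) and 0 a promoter peak (against 5.54%). It was sqt-3, named for its squat mutants, with rank 128 in replicate 1, no counterpart in replicate 2, IDR rank 408 and a GC content of 67.3% at the summit. Among the strongest peaks 4 of the 20 had a coding-exon summit in replicate 1 (against 1.11% of all genes) and 0 in replicate 2 (against 0.421%). Of 6 cuticlins, 1 had a coding-exon IDR peak (against the same 0.711%), cut-2, at rank 180 in replicate 1, 24297 in replicate 2 and 547 in the IDR list.

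Among 15 genes for collagen processing and cross-linking, 0 had a coding-exon IDR peak and 2 a promoter peak, against 0.711% and 5.54% of all genes. With so few genes in each list these counts are a description. The one at pdi-3, a protein disulfide isomerase gene, was found in both replicates, at ranks 344 and 543 in replicates 1 and 2 and IDR rank 352. The one at pdi-2, whose product is also a subunit of prolyl hydroxylase, ranked 442 in replicate 1 and 18751 in replicate 2, with IDR rank 935 and a GC content of 61.4% at the summit. The 4 collagens of basement membrane or the touch neuron matrix had no IDR peak, against 8.31% of all genes. Nor had the 11 genes known as regulators of collagen transcription or epidermal fate, such as nhr-23, blmp-1 and lin-29. Among the strongest peaks, 1 of the 4 had a coding-exon summit in replicate 1 (against 1.11% of all genes). In replicate 2, 1 of the 11 regulators had a summit of any class (against 8% of all genes). In the IDR list, then, coding-exon peaks without a strong replicate 2 counterpart were also seen at sqt-3 and cut-2.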

How the data were processed

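Per the labels, chromatin of whole L1 larvae was sonicated (fragments of 200 to 800 bp) and immunoprecipitated with an anti-GFP antibody in 2 biological replicates. Per the records deposited with the files, the authors made peak lists on ce11 from each replicate's alignment and a control alignment, a pooled list, and an optimal IDR list derived from these. The peak signal value and the −log10 q-value are as the authors deposited them, and no result rests on the latter. The sources used here do not give the caller, the aligner or the scale of the signal. All 1891 IDR peaks were rows of the pooled list.

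Gene models were those of Ensembl release 115, and sequence was RefSeq's WBcel235, which is ce11. All 156 members' coding sequences began with ATG. A summit was given to every gene whose window held it and classed by that gene's own model, in the order coding exon, UTR exon, intron, promoter. Starts were the outermost annotated ones. Python 3.11.15 with numpy 2.4.6, pandas 2.3.3, scipy 1.17.1 and matplotlib 3.10.9 was used, and the steps were tested on simulated data. Intervals are exact (Clopper-Pearson) and cover counting error over genes only.

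The members, gene lists and alternatives were chosen with earlier results of these data known, and lists are described by counts without enrichment tests. Genes named are those with a promoter IDR peak or a peak found in both replicates, the 12 with the strongest coding-exon IDR peak, the 3 with the strongest peak in each replicate and, of other lists, up to 4 with the strongest peak. Named outside this rule, after their values were seen, were col-141, col-44, col-17, col-99, col-12 and col-13. The name phy-4.1 matched no protein-coding gene.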

Additional observations from a re-analysis of the deposited data

How the results depend on the processing

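Of 39 alternatives, 23 kept the count within 1.5 times, or the median GC content within 1 SD (3.37 percentage points over the summits), and 16 moved it further. When a replicate was left out, by using the 1891 strongest peaks of the other, collagen genes with a peak ranged from 5 to 57 (main count 32), those with a coding-exon peak from 1 to 55 (main 27) and those with a promoter peak from 3 to 5 (main 4), and the median GC content at coding-exon summits ranged from 40.6% to 65.3% (main 66.3%). The lower end of each range came without replicate 1, and the 40.6% is that of 1 summit. With the stronger 50% of IDR peaks these counts were 17, 14 and 2. Genes with a promoter peak numbered 2 within 500 bp, 8 within 2000 bp and 2 when a summit was given to the nearest start only. Genes with a peak found in both replicates (main 3) numbered 5 within 2000 bp of the start and 15 when any deposited peak of each replicate counted. Coding-exon counts were 35 with 945 peaks and 111 with all peaks of replicate 1 (main 55), and 46 with all peaks of replicate 2 (main 1). Leaving out peaks near ceh-8, or those with 20% or more of words elsewhere, kept every count it was run on within 1.5 times. Without peaks near ceh-8, 31 genes had any peak, 3 a promoter peak and 2 a peak found in both replicates. The last of these, against 3, is at the limit of 1.5 times. These alternatives were chosen after seeing the data, except leaving out peaks near ceh-8 for genes with any peak. Since a shorter list holds fewer peaks by construction, the differences between counts from lists of unlike length cannot be interpreted. No paired analysis was possible because there is 1 group. Read depth is unknown, so absence from a list of fixed length does not show that a site was unoccupied.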
